A study of Mus musculus with 32 samples.

Results

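The genes described here are 10 of the 20560 in the deposited table, matched by symbol over all 32 libraries, and all 10 were found. They are 3 inhibitors of cyclin-dependent kinases (Cdkn1a, which encodes p21; Cdkn1b, p27; Cdkn2c, p18), the D cyclins Ccnd1, Ccnd2 and Ccnd3, the E cyclins Ccne1 and Ccne2, and the pocket proteins Rb1 and Rbl2 (p130). The rule that picks them uses the gene symbol alone.

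These genes control whether a cell leaves the gap after division and copies its DNA. D cyclins, made in response to growth factors, and then E cyclins switch on kinases that phosphorylate the pocket proteins, which otherwise hold E2F transcription factors and the genes of DNA synthesis silent. The inhibitors block these kinases, and in adipogenesis confluent preadipocytes re-enter the cycle for a short time after the hormones are added and then leave it for good as they turn into fat cells.

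The libraries came from 3T3-L1, a single mouse preadipocyte line, so the replicates do not stand for different animals. Every library carried an shRNA: a scramble control (4 libraries on each day) or 1 of 2 shRNAs against Zbtb9, which encodes a protein with BTB and zinc finger domains (2 libraries for each shRNA on each day). Cells were collected at day 0, when they were 2 days past confluence, and at days 3, 7 and 11. Dexamethasone, isobutylmethylxanthine and insulin were added from day 0, insulin alone was given from day 3, and the medium held no addition from day 7. The labels call the cells preadipocytes at day 0, premature adipocytes at days 3 and 7 and mature adipocytes at day 11, in every arm. The titles call replicates biological, but nothing says that they were separate cultures, and p-values then measure only the spread between these libraries.

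Depth was 22280363 to 31073726 reads in genes, and at day 11 the 4 knockdown libraries (22839508 to 25511855) were all shallower than the 4 controls (26486057 to 31073726). The targeted gene Zbtb9 had few reads after scaling to equal depth: 13.5 to 14.9 in control and 4.62 to 10.6 in knockdown libraries at day 0, 6.35 to 12.6 against 0 to 8.99 at day 3, 12.7 to 22.3 against 4.87 to 9.28 on day 7 and 12.1 to 19.96 against 2.13 to 19.3 at day 11. The groups did not overlap at days 0 and 7, and overlapped at days 3 and 11, at day 11 through 1 shRNA 1 library at 19.3 reads. A gene on the same strand shares 84.4% of its exon bases, which makes its counts uncertain, and at day 3 it was too low to be tested. Of 10 adipocyte markers, Adipoq and Plin1 were at 3 reads or fewer in the day 0 controls, and none of the 10 was that low in any group from day 3 on. In bulk RNA, fewer cells of a type and less RNA per cell cannot be told apart.

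Promoter letters are shown for the members in which a searched motif was present, because the pathway is best known through such sites. RefSeq windows from 250 bases before to 50 after a start (GRCm38.p6) were held for 6 members in 9 windows: Cdkn1a, Cdkn1b, Cdkn2c, Ccnd3, Ccne1 and Rbl2. The E2F motif (TTTCCCGC, TTTCGCGC, TTTGCCGC or TTTGGCGC, both strands) was in 2.26% of all 32851 windows and in none of these 9, while 5 of 8 listed E2F target genes with a window held it. Its shorter core, the same letters without the first T, which every E2F match also contains, was in 9.57% of windows and in 1 of Cdkn2c. The CHR motif (TTTGAA or TTCGAA, both strands), which the MuvB complex reads together with p130, was in 19.2% of windows and in that of Rbl2. A spaced pair of CATG cores, CATGNNNNNNCATG, as in sites of p53, was in 0.712% of windows and in 1 of Cdkn1a. The shorter E2F core and the CATG pair were added after the member windows had been read. Matches describe letters only, and a window without a match says nothing about a factor. The bases before the start are given 5′ to 3′ on the gene's strand, with the matched letters in capitals (for Cdkn1a only the CATG cores).

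Cdkn2c, chr4:109666757-109667006, minus strand, E2F core: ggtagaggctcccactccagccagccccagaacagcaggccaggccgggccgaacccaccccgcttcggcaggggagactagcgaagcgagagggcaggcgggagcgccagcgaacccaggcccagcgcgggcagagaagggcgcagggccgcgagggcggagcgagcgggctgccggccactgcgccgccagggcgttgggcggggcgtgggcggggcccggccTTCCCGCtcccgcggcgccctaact
Cdkn1a, chr17:29090729-29090978, plus strand, pair of CATG cores: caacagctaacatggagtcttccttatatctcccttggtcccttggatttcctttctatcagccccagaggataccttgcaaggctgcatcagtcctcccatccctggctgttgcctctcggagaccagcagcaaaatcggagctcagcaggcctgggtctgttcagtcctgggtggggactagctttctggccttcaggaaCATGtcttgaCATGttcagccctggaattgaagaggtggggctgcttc
Rbl2, chr8:91069807-91070056, plus strand, CHR on the opposite strand: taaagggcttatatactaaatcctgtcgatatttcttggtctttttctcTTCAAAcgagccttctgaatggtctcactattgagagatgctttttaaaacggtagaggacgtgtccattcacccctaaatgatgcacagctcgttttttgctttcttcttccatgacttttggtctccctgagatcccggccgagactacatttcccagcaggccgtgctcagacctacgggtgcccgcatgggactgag

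In confluent control cells at day 0 Ccnd2, Ccnd1 and Cdkn1a had the highest levels and Ccne1, Rb1 and Ccne2 the lowest. Levels between genes are compared as normalised reads per kilobase of exon (mean ± SD, n = 4). Ccnd2 was highest at 3260 ± 128, then Ccnd1 at 2760 ± 76.3, Cdkn1a at 2010 ± 19.9 and Cdkn1b at 967 ± 27.7. Ccnd3 followed at 450 ± 17.9, Cdkn2c at 348 ± 31.6, Rbl2 at 238 ± 5.74, Ccne1 at 142 ± 12.2, Rb1 at 91.1 ± 3.37 and Ccne2 at 74.2 ± 9.2. Each gap between neighbours in this order exceeded the sum of their SDs.

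All 10 genes in each library are shown in the panels by gene and day. Exons of 7 members share bases with a gene on the opposite strand in GENCODE M21 (GRCm38), from 3.91% of Ccnd2 to 23.4% of Ccnd1, and whether counting used strand is not given in the sources used here. Levels of these partners are given with the genes, except for that of Cdkn1a, which was not analysed here.

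**Figure D1:**
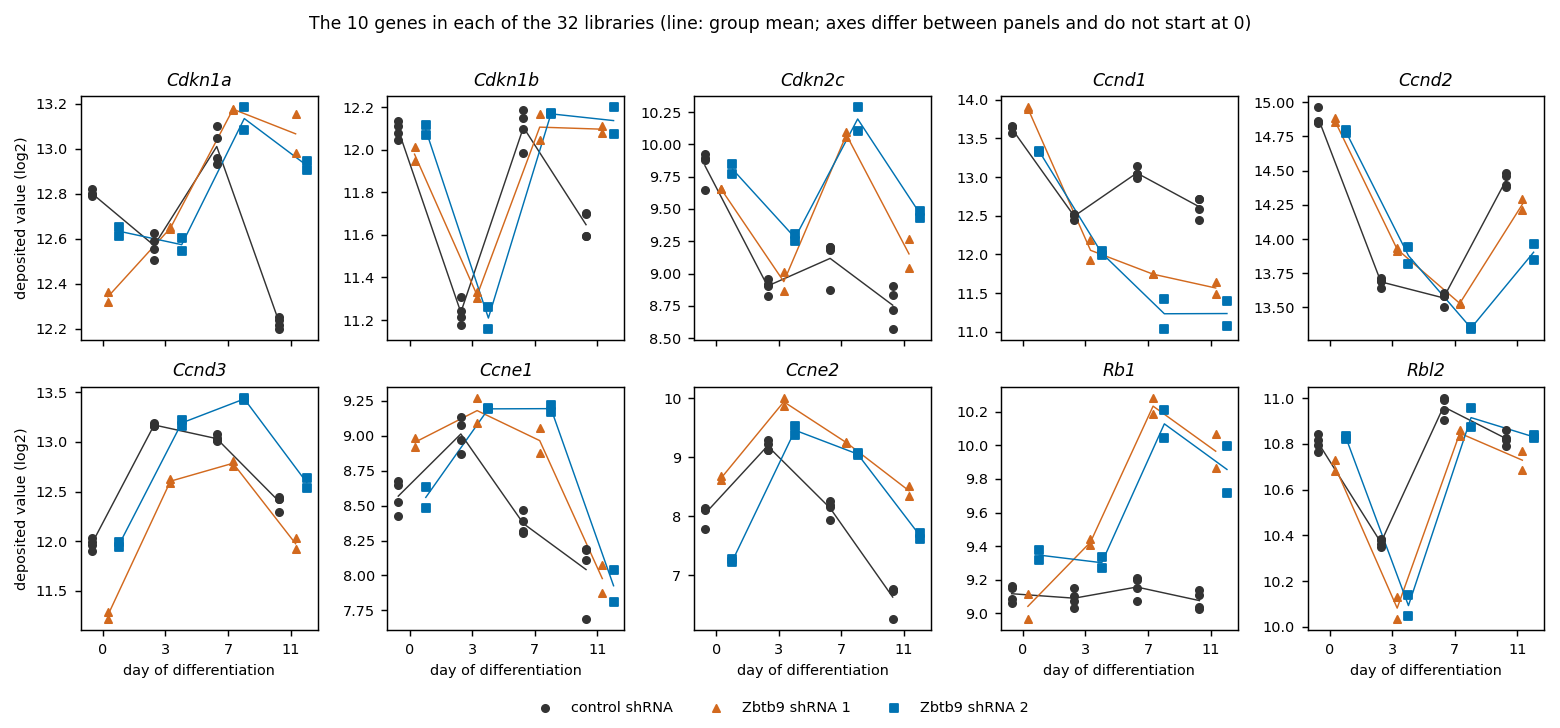
Deposited log2 values (y axis, scale differs between panels and does not start at 0) of the 10 genes by day (x axis) in each library: control (circles, 4 a day), shRNA 1 (triangles, 2) and shRNA 2 (squares, 2), with lines through group means. From day 3 on, Rb1 lies above control and Ccnd1 below it in both shRNA arms, and Ccnd3 lies lower with shRNA 1 on every day.

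In the control cells, members moved in both directions over differentiation. By day 3 the D cyclins Ccnd1 and Ccnd2 and all 3 inhibitors had fallen, while Ccnd3 and both E cyclins had risen. By day 11 all of the inhibitors and both E cyclins were below day 0, and Ccnd3 alone was above it. Rb1 did not pass the test between any of the days compared, and its group means differed by at most 0.08 on the log2 scale in the day pairs tested. A gene was called at a Benjamini-Hochberg adjusted p under 0.05 from limma over all genes tested.

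Against day 0, 9 members were called at day 3 (3 higher, 6 lower; 76.6% of all genes tested were called, 38.3% higher and 38.2% lower), 6 on day 7 (3 higher, 3 lower; 69.1%, 33.3% and 35.8%) and 8 at day 11 (1 higher, 7 lower; 64.6%, 33% and 31.6%). Between consecutive days, 9 were called from day 3 to 7 (5 higher, 4 lower; 74.2%, 37.6% and 36.6%) and 9 from day 7 to 11 (1 higher, 8 lower; 55.0%, 28.9% and 26.1%). The medians of the 10 log2 changes were -0.33, 0.03 and -0.49 against day 0 at days 3, 7 and 11, beside 0.00, -0.01 and 0.01 over all genes tested. With every library scaled to the same total, the median over all genes at day 3 shifted from 0.00 to -0.12, the share of higher genes among all calls from 50.1% to 38.6%, and Rb1 was then called at -0.15 (adjusted p = 0.0188, limma). Some control calls turned on the setting: Ccne1 on day 7 against day 0 (-0.20, not called) was called after scaling to the same total and with the stricter filter, and Ccnd3 at day 11 lost its call in 1 fit of all 32 libraries (adjusted p = 0.0511, limma). These comparisons share the day 0, day 3 or day 7 controls with each other and with the knockdown comparisons.

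With both shRNAs pooled, Zbtb9 knockdown cells differed from control in 1 member at day 0 and in more of them on later days, on which more of all genes were called too. Ccnd1 was lower in knockdown cells at days 3, 7 and 11, and Ccne2 and Rb1 were higher on the same days. Cdkn2c was higher at days 7 and 11, Ccne1 on day 7, Cdkn1a at days 7 and 11 and Cdkn1b at day 11. Of the 10 members 1 was called at day 0 (0 higher, 1 lower; 3.25% of all genes tested), 5 at day 3 (3 higher, 2 lower; 26.7%), 6 on day 7 (5 higher, 1 lower; 47.6%, not far from the members' share) and 7 at day 11 (5 higher, 2 lower; 33.0%). The medians of the 10 log2 differences were -0.06, 0.11, 0.11 and 0.21 on these days, against -0.01, 0.00, 0.01 and -0.01 over all genes tested. The same scaling shifted the percentage of calls that were higher at day 0 from 25.1% to 43.3%. At days 3, 7 and 11 it shifted from 54.7% to 53.2%, 52.4% to 44.7% and 50.8% to 44.4%.

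All 4 knockdown libraries lay on 1 side of all 4 controls for 1 member at day 0, 5 at day 3, 5 on day 7 and 7 at day 11. Over all genes tested, this held for 13.9%, 28.3%, 44.2% and 34.3% on these days. The 5 members on day 7 (Cdkn2c, Ccnd1, Ccne1, Ccne2 and Rb1) each had an absolute difference larger than that of 92.3% to 99.0% of the genes tested. In the other 5 members it was larger than that of 9.26% to 39.2%. The first 5 were picked by their separation, so their ranks are no separate result.

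**Figure D2:**
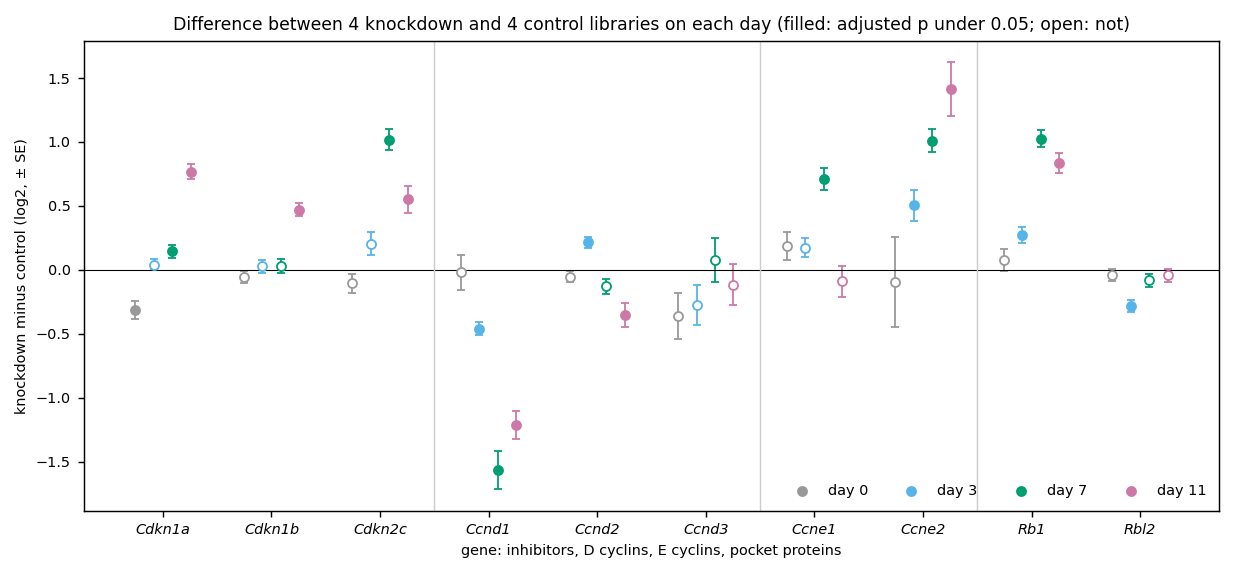
Difference between knockdown (n = 4) and control (n = 4) libraries on the log2 scale (y axis, ± SE from limma) for each gene (x axis) at days 0, 3, 7 and 11 (colours); filled points passed the adjusted p of 0.05. Ccnd1 lies at -1.57 on day 7 and -1.22 on day 11, and Ccne2 rises to 1.41 on day 11.

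Cdkn1a (ENSMUSG00000023067, chromosome 17, 29090976 to 29100727, plus strand) encodes p21, an inhibitor of kinases bound by cyclins A, D and E that p53 can induce. In control cells it had 7144, 7130, 7256 and 7092 normalised reads at day 0, 6312, 6144, 5992 and 5791 at day 3, 8537, 8005, 8847 and 7846 on day 7 and 4696, 4780, 4823 and 4648 at day 11. It was thus highest on day 7 and lowest at day 11, with no overlap between any 2 days, and the fall from day 7 to day 11 was -0.78 ± 0.04 (SE) on the log2 scale (adjusted p = 2.81e-19, limma). The knockdown libraries of day 11 had 8122 and 9192 reads with shRNA 1 and 7711 and 7914 with shRNA 2. All 4 exceeded the day 11 controls, a difference of 0.77 ± 0.06 or 1.7-fold (adjusted p = 3.19e-06).

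At day 0 Cdkn1a went the other way. It had 5225 and 5065 reads with shRNA 1 and 6427 and 6252 with shRNA 2, all below the 4 controls of that day, and differed by -0.31 ± 0.07 (adjusted p = 0.0391, limma). This call was lost without either shRNA 1 library or any 1 of the 4 controls (adjusted p from 0.0747 to 0.126), and kept without either shRNA 2 library. At day 7 the difference was 0.14 ± 0.05 (adjusted p = 0.0301), the groups overlapped, and 5 of the 8 libraries each ended the call when left out: both of shRNA 1, replicate 1 of shRNA 2 and control replicates 2 and 4 (adjusted p from 0.0555 to 0.106). The day 7 call was also lost after scaling to the same total (0.11, adjusted p = 0.0819, limma) and without the trend and robust variance (0.0654), as was the day 0 call (0.0522 and 0.0875) and, for day 0, without the filter (0.0801). An unnamed transcript shares 7.68% of its exon bases on the opposite strand.

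Cdkn1b (ENSMUSG00000003031, chromosome 6, 134920401 to 134925513, plus strand) encodes p27, which accumulates in arrested cells and is largely set by protein breakdown, not seen here. The control level was lowest at day 3, with 2278 to 2501 reads against 4251 to 4541 at day 0, a change of -0.86 ± 0.04 (adjusted p = 1.64e-19, limma). It was back at 4075 to 4714 by day 7 and fell again to 3076, 3322, 3075 and 3317 at day 11. The knockdown libraries held 4359 and 4465 reads with shRNA 1 and 4748 and 4344 with shRNA 2 at day 11, all above control, with a difference of 0.47 ± 0.05 or 1.38-fold (adjusted p = 4.29e-05). At days 0, 3 and 7 the groups overlapped and the differences were -0.06, 0.03 and 0.03, none called.

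Cdkn2c (ENSMUSG00000028551, chromosome 4, 109660876 to 109667189, minus strand) encodes p18, which binds CDK4 and CDK6 and keeps D cyclins off them. Its control level fell from 995, 974, 964 and 810 reads at day 0 to 441 to 488 at day 3 (-0.93 ± 0.08, adjusted p = 6.06e-13, limma) and stayed low, with 584, 577, 458 and 585 on day 7 and 443, 467, 406 and 365 at day 11. With knockdown on day 7 it had 1129 and 1096 reads with shRNA 1 and 1140 and 1300 with shRNA 2, above every control of that day and also above every control of day 0. The difference was 1.02 ± 0.08, 2.02-fold (adjusted p = 8.51e-08). At day 11 the knockdown libraries still lay above control, at 612 and 518 reads with shRNA 1 and 722 and 694 with shRNA 2 (0.55 ± 0.11, adjusted p = 0.00206). The day 3 difference of 0.20 was not called (adjusted p = 0.111, limma). It was called with the shRNAs as separate groups (adjusted p = 0.0113) and without replicate 1 of shRNA 1 (0.28, adjusted p = 0.0211).

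Summed per length, the 3 inhibitors stood at 3330 ± 71.7 reads per kilobase in control cells at day 0, 2400 ± 48.4 at day 3, 3520 ± 145 on day 7 and 2190 ± 39 at day 11 (SD, n = 4). The knockdown sums were 2870 ± 262, 2490 ± 49, 4030 ± 67 and 3540 ± 149. Cdkn1a made up most of the sum on every day in both groups, from 56.3% in knockdown at day 0 to 71% in control at day 3. The knockdown sum at day 11 was within 1 SD of the control sum on day 7, while the control sum was lowest at day 11.

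**Figure D3:**
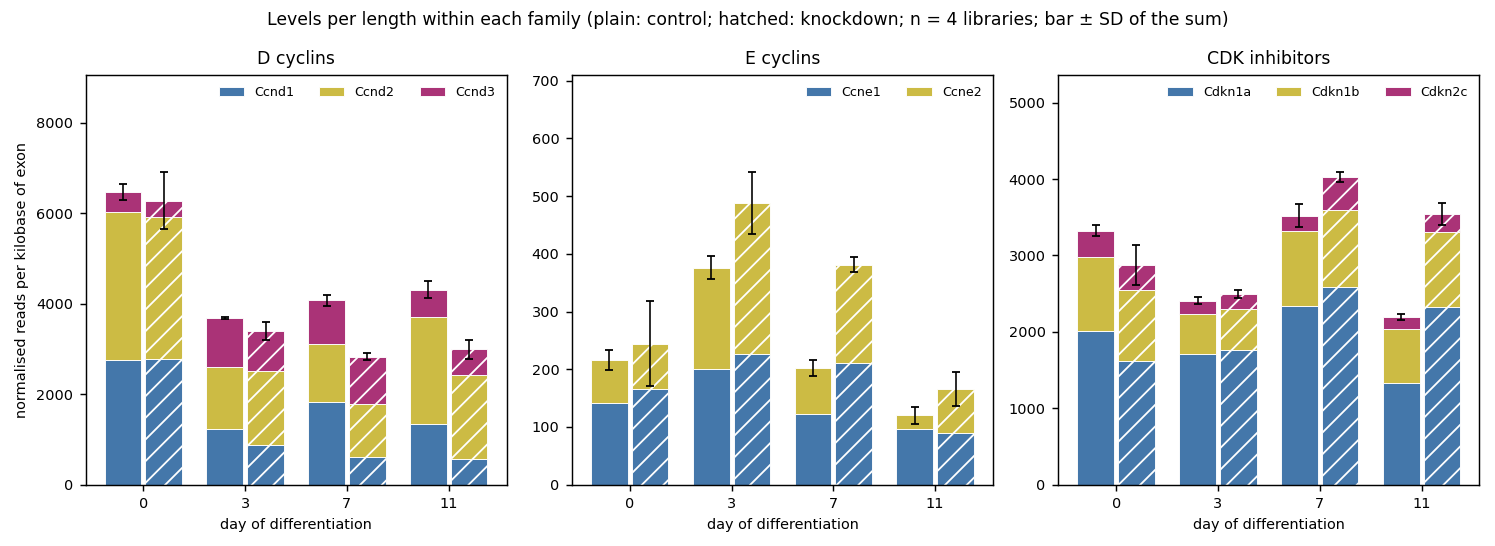
Normalised reads per kilobase of exon (y axis, from 0) stacked by gene for the D cyclins, the E cyclins and the CDK inhibitors by day (x axis), control plain and knockdown hatched, n = 4 libraries each, with the SD of the sum as bars. With knockdown the D cyclin sum is lower and the sum of these 3 inhibitors higher on days 7 and 11. The E cyclin sum is higher on days 3 and 7, and the inhibitor sum is lower at day 0. In each of these cases the libraries do not overlap, while the E cyclin ranges meet at 132 at day 11.

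Ccnd1 (ENSMUSG00000070348, chromosome 7, 144929931 to 144939925, minus strand) encodes cyclin D1, the partner of CDK4 and CDK6 made in response to growth factors. In control cells it had 12460, 13230, 13120 and 13180 reads at day 0, 5576 to 5861 at day 3, 8505, 8216, 8502 and 9207 on day 7 and 6740, 6146, 6751 and 5570 at day 11. The fall by day 3 was -1.14 ± 0.04 and the partial return from day 3 to day 7 was 0.56 ± 0.04 (adjusted p = 8.46e-21 and 9.53e-13, limma). In knockdown cells no library on day 7 exceeded any at day 3. They had 4615 and 3823 reads with shRNA 1 and 4017 and 4162 with shRNA 2 at day 3, and 3372 and 3355 reads with shRNA 1 and 2674 and 2025 with shRNA 2 on day 7.

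Every knockdown library lay below every control for Ccnd1 at days 3, 7 and 11. The difference was -0.46 ± 0.05 at day 3 (adjusted p = 2.77e-05, limma), -1.57 ± 0.15 on day 7 (0.338 of control, adjusted p = 4.85e-05) and -1.22 ± 0.11 at day 11 (0.431 of control, adjusted p = 3.1e-05). At day 11 the knockdown values were 2808 and 3116 reads with shRNA 1 and 2622 and 2073 with shRNA 2. The absolute difference on day 7 exceeded that of 99.0% of the genes tested. LTO1, which shares 23.4% of the exon bases of Ccnd1 on the opposite strand, had 708 ± 20.3 reads in control and 634 ± 36.6 in knockdown at day 3, 823 ± 94.4 and 663 ± 62.6 on day 7 and 721 ± 29.1 and 628 ± 26.1 at day 11 (SD, n = 4). Its part in the result was not tested.

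Ccnd2 (ENSMUSG00000000184, chromosome 6, 127125162 to 127152193, minus strand) encodes cyclin D2 and had the highest level per length of the set in control cells at days 0 and 11. It fell from 30070, 32500, 30260 and 29950 control reads at day 0 to 12680 to 13360 at day 3 and 11470 to 12320 on day 7, and returned to 22740, 21720, 23080 and 21460 at day 11. The rise from day 7 to day 11 was 0.86 ± 0.03 (adjusted p = 7.59e-21, limma), the only rise among the 9 members called in that interval. With knockdown the day 11 values were 19020 and 20200 reads with shRNA 1 and 14620 and 15930 with shRNA 2, all below control (-0.35 ± 0.09, adjusted p = 0.0122). At day 3 all 4 knockdown libraries (14320 to 15690) were above control (0.21 ± 0.04, adjusted p = 0.00197). The differences on these days thus had opposite signs, and their difference was not tested. Gm43126 and 9330179D12Rik, which share 3.95% and 3.91% of its exon bases on the opposite strand, had group means of at most 36.1 reads. The Ccnd2 difference on day 7 (-0.13) was not called, but was after scaling to the same total (-0.17, adjusted p = 0.00978, limma) and, among other settings, without either shRNA 1 library.

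Ccnd3 (ENSMUSG00000034165, chromosome 17, 47505051 to 47599691, plus strand) encodes cyclin D3, the D cyclin that rises in differentiating muscle and fat cells. In control cells it had 4011, 3924, 4122 and 3750 reads at day 0 and 9386, 9500, 9280 and 9263 at day 3, a rise of 1.20 ± 0.04 or 2.3-fold (adjusted p = 1.41e-25, limma). It held 8309 to 8742 on day 7 and 4992 to 5540 at day 11. Knockdown with both shRNAs pooled gave -0.36 ± 0.18, -0.27 ± 0.16, 0.08 ± 0.17 and -0.12 ± 0.16 by day, none called and all with overlapping groups. With the shRNAs as separate groups, their mean difference from control was called at day 0 (adjusted p = 1.61e-09, limma) and day 3 (5.8e-09). On those days only shRNA 1 differed from control. Values for each shRNA are given with the comparison of the shRNAs. Bysl, which shares 4.11% of the exon bases on the opposite strand, had 808 ± 23.6 control reads at day 0 and 1970 ± 77.9 at day 3 (SD, n = 4), higher over the same interval as Ccnd3, and was at 921 ± 68.1 and 861 ± 84.6 on days 7 and 11. Its part in the Ccnd3 values was not tested.

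The balance among D cyclins, in percent of their summed reads per kilobase, moved with differentiation and with knockdown. In control cells Ccnd3 made up 6.96% at day 0, 29% at day 3, 23.7% on day 7 and 14.2% at day 11. The Ccnd1 share was 44.9% in control and 21.6% in knockdown cells on day 7, and 31% and 18.7% at day 11. The highest knockdown library was below the lowest control on both days (26.0% and 44.1% on day 7, 20.4% and 28.9% at day 11). The summed level was 6470 ± 174 reads per kilobase in control at day 0 and 3680 ± 23.1, 4070 ± 127 and 4320 ± 181 on the later days, against 6270 ± 632, 3400 ± 197, 2820 ± 81.1 and 3000 ± 207 with knockdown (SD, n = 4).

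Ccne1 (ENSMUSG00000002068, chromosome 7, 38097984 to 38107534, minus strand) encodes cyclin E1, which with CDK2 starts DNA synthesis and is itself an E2F target. Its control level rose from 340 to 410 reads at day 0 to 476 to 582 at day 3 (0.44 ± 0.09, adjusted p = 3.82e-05, limma) and then fell to 351, 312, 309 and 330 on day 7 and 282, 266, 282 and 191 at day 11. In the knockdown libraries of day 7 it had 478 and 546 reads with shRNA 1 and 619 and 595 with shRNA 2, all above control, a difference of 0.71 ± 0.09 or 1.63-fold (adjusted p = 6.16e-06). By day 11 the groups overlapped again at 210 to 259 reads in knockdown (-0.09 ± 0.12, adjusted p = 0.6). The difference on day 7 was larger than that at day 11 by the test between days.

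Ccne2 (ENSMUSG00000028212, chromosome 4, 11191351 to 11204779, plus strand) encodes cyclin E2. In control cells it had 211, 279, 275 and 272 reads at day 0, 585, 583, 664 and 635 at day 3, 303, 290, 239 and 282 on day 7 and 59.4, 92.5, 91.2 and 90.1 at day 11. It therefore peaked at day 3 (1.15 ± 0.10 against day 0, adjusted p = 3.76e-12, limma) and fell below day 0 by day 11 (-1.41 ± 0.10, adjusted p = 4.77e-14). The knockdown libraries had 643 and 640 reads with shRNA 1 and 562 and 548 with shRNA 2 on day 7 and 325 and 371 reads with shRNA 1 and 199 and 185 with shRNA 2 at day 11.

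At days 3, 7 and 11 every knockdown library exceeded every control for Ccne2. The differences were 0.51 ± 0.12, 1.01 ± 0.09 and 1.41 ± 0.21 (adjusted p = 0.0109, 1.89e-07 and 0.000639, limma), and the last corresponds to 2.67-fold. The deposited scale draws low genes towards their mean, so this understates the change: the day 11 means were 83.3 ± 16 reads in control and 270 ± 92.3 in knockdown (SD, n = 4). In 1 fit of all 32 libraries the day 3 call was lost (adjusted p = 0.151). Ints8, which shares 17.4% of the exon bases on the opposite strand, had 977 ± 36.9 and 1160 ± 59.1 reads at day 3, 768 ± 48.7 and 797 ± 35.7 on day 7 and 982 ± 40.1 and 995 ± 72.4 at day 11 in control and knockdown. It was thus higher with knockdown at day 3, and its part in the Ccne2 values was not tested.

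Per length, Ccne1 exceeded Ccne2 in every control library, though at day 3 the means (200 ± 17.5 and 176 ± 11.3) lay within the sum of their SDs. At day 11 Ccne1 made up 79.8% of E cyclin reads per kilobase. In knockdown cells it made up 54.4% at day 11, and the highest knockdown library (62.5%) was below the lowest control (73.6%). The summed E cyclin level was 202 ± 14.1 reads per kilobase in control and 381 ± 13 in knockdown on day 7, and 120 ± 15.3 and 166 ± 28.9 at day 11 (SD, n = 4). Both were small beside the D cyclin sums.

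Rb1 (ENSMUSG00000022105, chromosome 14, 73183673 to 73325822, minus strand) encodes the retinoblastoma protein, which represses E2F targets and, in fat cell differentiation, also works with C/EBP factors. It was level in control cells, with 526, 563, 536 and 568 reads at day 0, 530, 514, 561 and 543 at day 3, 586, 562, 529 and 581 on day 7 and 512, 544, 556 and 516 at day 11. With knockdown it had 679 and 697 reads with shRNA 1 and 614 and 643 with shRNA 2 at day 3, 1206 and 1297 reads with shRNA 1 and 1088 and 1230 with shRNA 2 on day 7, and 1106 and 953 reads with shRNA 1 and 1049 and 856 with shRNA 2 at day 11. All 4 knockdown libraries exceeded all 4 controls on each of these days. The differences were 0.27 ± 0.06, 1.02 ± 0.07 and 0.84 ± 0.08 (adjusted p = 0.00559, 9.21e-09 and 1.4e-05, limma), which is 2.03-fold on day 7.

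Exons of Rb1 share 8.11% of their bases with Rcbtb2 and 6.78% with Lpar6, both on the opposite strand. At day 3 Rcbtb2 had 602 ± 36.9 reads in control and 696 ± 101 in knockdown, and Lpar6 103 ± 5.36 and 148 ± 34.6, beside 537 ± 19.9 and 658 ± 37.3 for Rb1 (SD, n = 4). At day 7 Rcbtb2 had 826 ± 31.3 reads in control and 1060 ± 126 in knockdown, and Lpar6 140 ± 18.8 and 150 ± 28.3, beside 565 ± 25.8 and 1205 ± 87.3 for Rb1. At day 11 Rcbtb2 had 815 ± 65.1 and 926 ± 193, and Lpar6 82.3 ± 10.1 and 129 ± 57.5. These reads are of the whole partner genes, and how many of them fall in the bases shared with Rb1 is not known. The part of Rcbtb2 and Lpar6 in the Rb1 values was not tested.

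Rbl2 (ENSMUSG00000031666, chromosome 8, 91070057 to 91123844, plus strand) encodes p130, the pocket protein of resting cells. Its control level dipped at day 3, to 1317, 1322, 1291 and 1303 reads from 1782, 1742, 1845 and 1811 at day 0 (-0.44 ± 0.04, adjusted p = 3.69e-12, limma), and stood at 1932 to 2070 and 1776 to 1867 at days 7 and 11. At day 3 it was lower still with knockdown, at 1099 and 1025 reads with shRNA 1 and 1036 and 1106 with shRNA 2, all below control (-0.28 ± 0.05, adjusted p = 0.000806). On the other days the groups overlapped and the differences of -0.04, -0.08 and -0.04 were not called. Its overlap partner Aktip (9.17% of exon bases, opposite strand) had 954 ± 55.2 reads in control and 943 ± 15 in knockdown at day 3, and Gm45464 (11.8%) had at most 2.94 on average in any group.

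The shRNAs gave different values for several members, most at day 0. Each was compared with the same 4 controls, so the 2 comparisons are set side by side. Against control at day 0, shRNA 1 called 7 members (3 higher, 4 lower; 34.7% of all genes tested) and shRNA 2 called 5 (1 higher, 4 lower; 17.6%). The shRNAs differed from each other in 7 members at day 0 (35.0%), 3 at day 3 (19.6%), 3 on day 7 (16.4%) and 3 at day 11 (22.0%). Against control, shRNA 1 called 6 members at day 3 (39.4%), 7 on day 7 (52.0%) and 8 at day 11 (43.6%). With shRNA 2 the counts were 6 (31.4%), 7 (46.0%) and 8 (36.9%). The same scaling shifted the percentage of calls that were higher from 42% to 57% for shRNA 2 at day 0, from 53.2% to 42.5% for shRNA 1 on day 7 and from 45.8% to 61.9% between the shRNAs on day 7.

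**Figure D4:**
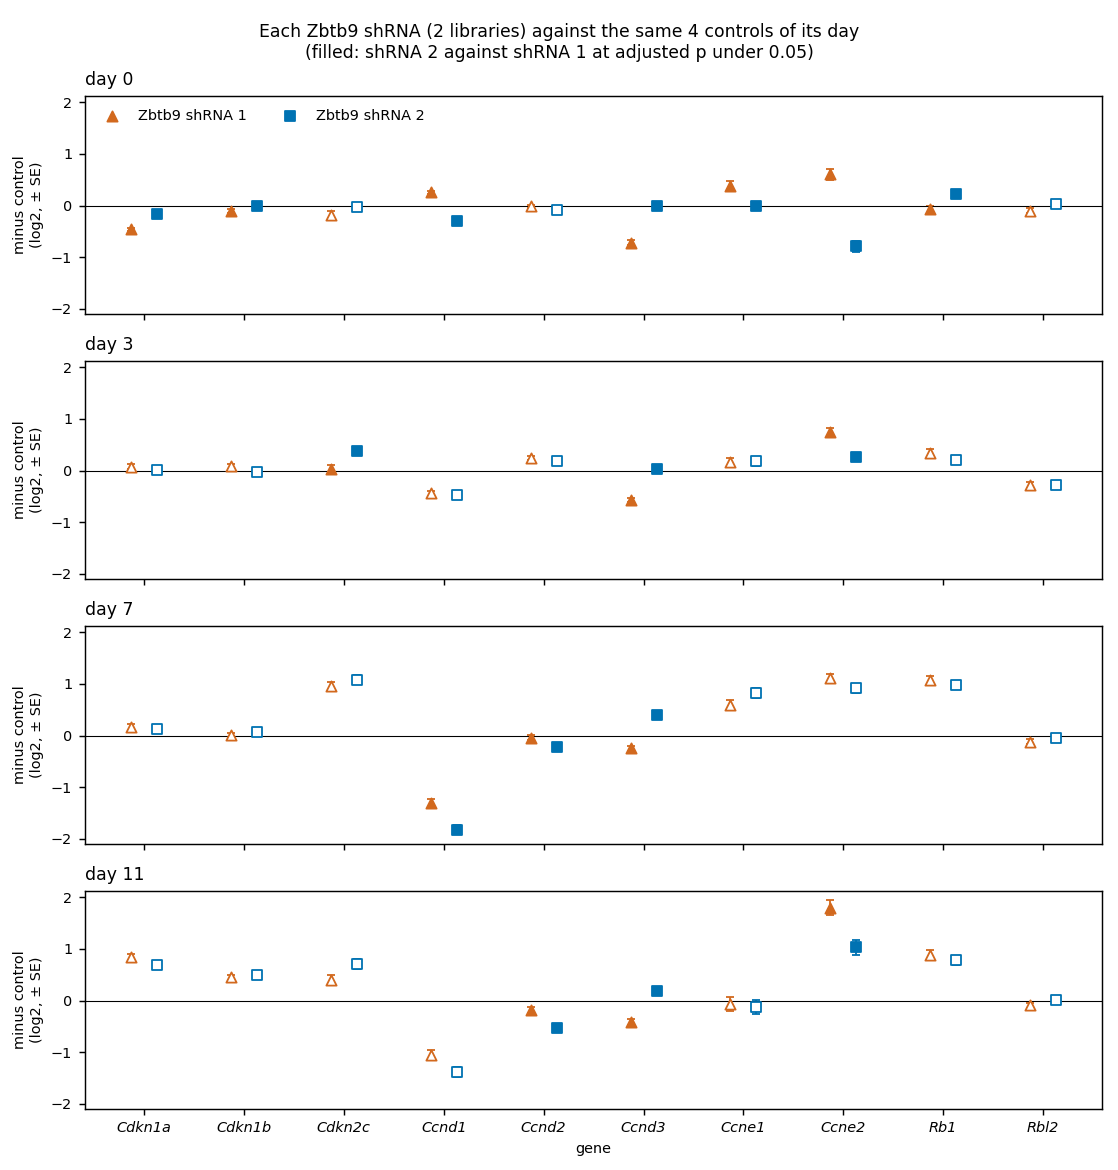
Difference from the 4 controls of the same day on the log2 scale (y axis, ± SE from limma) for each gene (x axis) with shRNA 1 (triangles, 2 libraries) and shRNA 2 (squares, 2 libraries), 1 panel per day; filled symbols mark genes in which the shRNAs differed from each other. Ccnd3 differs between the shRNAs on all 4 days, and at day 0 Ccne2 and Ccnd1 lie on opposite sides of control.

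Ccnd3 differed between the shRNAs on every day. It had 2295 and 2425 reads with shRNA 1 and 4016 and 3870 with shRNA 2 at day 0, and 6148 and 6319 reads with shRNA 1 and 9316 and 9675 with shRNA 2 at day 3. At day 7 the values were 7235 and 6958 reads with shRNA 1 and 11210 and 11380 with shRNA 2, and at day 11 4131 and 3804 reads with shRNA 1 and 6391 and 5944 with shRNA 2. With shRNA 1 it differed from control by -0.72, -0.57, -0.25 and -0.42 on the log2 scale, each called. With shRNA 2 it was at 0.00 and 0.02 on days 0 and 3 (not called) and above control by 0.40 and 0.19 on days 7 and 11 (called). The difference between the shRNAs was 0.71 ± 0.05, 0.59 ± 0.04, 0.65 ± 0.05 and 0.62 ± 0.07 (adjusted p from 6.16e-13 to 7.36e-06, limma). Without replicate 1 of shRNA 2 the shRNA 2 call at day 11 was lost.

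At day 0 the shRNAs differed in Ccnd3 and in 6 further members. Cdkn1a was below control with both, by more with shRNA 1 (-0.46 ± 0.03) than with shRNA 2 (-0.17 ± 0.03), a difference of 0.29 ± 0.04 (adjusted p = 6.99e-07, limma). Cdkn1b was at -0.11 with shRNA 1 (called) and 0.00 with shRNA 2 (not called). The shRNA 1 call was lost without its replicate 2 (-0.08, adjusted p = 0.263, limma) or control replicate 3, and the difference between the shRNAs (adjusted p = 0.0441) was lost without any 1 of the 4 shRNA libraries. Ccne2 had 418 and 400 reads with shRNA 1 and 141 and 134 with shRNA 2, on opposite sides of the controls (0.60 ± 0.10 and -0.79 ± 0.10, adjusted p = 2.22e-05 and 1.27e-06, limma). Ccnd1 had 15780 and 15480 reads with shRNA 1 and 10570 and 10470 with shRNA 2, also on opposite sides (0.26 ± 0.03 and -0.30 ± 0.03, adjusted p = 1.71e-07 and 7.26e-08). Ccne1 was above control with shRNA 1 (494 and 517 reads, 0.38, called) and at -0.01 with shRNA 2 (not called). Rb1 was above control with shRNA 2 (665 and 635 reads, 0.23, called) and at -0.08 with shRNA 1 (not called). The difference between the shRNAs was lost for Ccne1 without replicate 2 of shRNA 2 (adjusted p = 0.0518) and for Rb1 without replicate 2 of shRNA 1 (0.0822). The shRNA 2 call for Rb1 was lost without either shRNA 2 library or control replicate 1.

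Genes of proliferation also differed between the shRNAs at day 0, and their part in these values was not tested. All 10 proliferating-cell markers were higher than control with shRNA 1 (median 1.01 on the log2 scale), while with shRNA 2 1 was higher and 3 were lower (median -0.03). Of 10 E2F target genes of S phase entry, 10 were higher with shRNA 1 (median 0.51) and 9 were lower with shRNA 2 (median -0.39). Of all genes tested, 15.8% were higher with shRNA 1, and 7.38% higher and 10.2% lower with shRNA 2. The summed reads of the 10 proliferation markers ran from 7261 to 7718 in the day 0 controls and from 6898 to 15160 over the knockdown libraries, and no marker was at 3 reads or fewer.

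The 2 shRNAs of a day were set against the same controls, and their values are given side by side. Ccnd1 was lower with both at days 3, 7 and 11, and on day 7 further with shRNA 2 (-1.82 ± 0.08) than with shRNA 1 (-1.31 ± 0.08), a difference of -0.51 ± 0.09 (adjusted p = 0.00145, limma). Ccne2 was higher with both on these days, and less so with shRNA 2 at day 3 (-0.48 against shRNA 1, adjusted p = 6.67e-05) and day 11 (-0.77, adjusted p = 0.00329). Ccnd2 at day 11 was at -0.18 with shRNA 1 and -0.53 with shRNA 2, which differed (adjusted p = 0.00178). On day 7 the shRNAs also differed in Ccnd2 by -0.18 (adjusted p = 0.0243), a call lost without any 1 of the 4 shRNA libraries (adjusted p up to 0.124). Cdkn2c at day 3 rose with shRNA 2 (0.37, called) and stood at 0.03 with shRNA 1, which differed by 0.34 ± 0.09 (adjusted p = 0.00677). That difference was lost without replicate 1 of shRNA 1 (0.27, adjusted p = 0.122) or replicate 1 of shRNA 2. For Rb1 on day 7 the shRNAs gave 1.08 ± 0.07 and 0.97 ± 0.07, and for Cdkn1a at day 11 0.84 ± 0.05 and 0.70 ± 0.05. The differences between the shRNAs in those 2 genes were -0.11 ± 0.08 and -0.14 ± 0.06 and were not called, though the second was without replicate 1 of shRNA 1 (-0.23, adjusted p = 0.0198). Other calls for a single shRNA that were lost without 1 library were Cdkn2c with shRNA 1 at day 0 without either of its libraries or control replicates 1, 2 or 3, Ccnd2 with shRNA 2 at day 0 without either of its libraries or control replicate 2, and Cdkn1a with shRNA 1 on day 7 without either of its libraries. Further such losses were Ccne2 with shRNA 2 at day 3 without its replicate 1, Rb1 with shRNA 2 at day 3 without either of its libraries or control replicate 2, Ccnd2 with shRNA 1 at day 11 without its replicate 1 or control replicates 1 or 3, and Cdkn2c with shRNA 1 at day 11 without its replicate 1.

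Whether the knockdown difference itself changed between days was tested over all 32 libraries. From day 0 to day 3 it changed in 2 members, upwards in Cdkn1a (0.36 ± 0.08) and downwards in Rbl2 (-0.24 ± 0.06; 6.57% of all genes tested were called). From day 0 to day 7 it changed in 6, Cdkn1a, Cdkn2c, Ccne1, Ccne2 and Rb1 upwards and Ccnd1 downwards (29.9%). From day 0 to day 11 it changed in 7, Cdkn1a, Cdkn1b, Cdkn2c, Ccne2 and Rb1 upwards and Ccnd1 and Ccnd2 downwards (23.2%). From day 7 to day 11 it changed in 4 (12.7%): upwards in Cdkn1a (0.62 ± 0.08) and Cdkn1b (0.44 ± 0.07), downwards in Cdkn2c (-0.47 ± 0.14) and Ccne1 (-0.80 ± 0.15). All 3 inhibitors were called higher at day 11, where the differences of Cdkn1a and Cdkn1b were larger and that of Cdkn2c smaller than on day 7 by this test. The call for Cdkn2c from day 7 to 11 was lost without control replicate 3 of day 7, control replicate 2 of day 11 or shRNA 1 replicate 2 of day 11, and that for Ccne2 from day 0 to 7 without either shRNA 2 library of day 0. The same scaling shifted the percentage of calls that were higher from 56.2% to 42.4%, 56% to 40.7% and 53.6% to 40.1% for days 3, 7 and 11 against day 0.

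The other genes of the pathway were counted in lists by role, as the number called in each direction. In control cells at day 3, 8 of 10 E2F target genes were higher than at day 0 and none lower (median 0.48; 38.3% of all genes tested were higher), and at day 11 all 10 were lower (median -1.37; 31.6% of all), as were the 10 proliferation markers (median -2.17). At day 3 the proliferation markers had 2 higher and 4 lower (median -0.12). The CDKs (Cdk1, Cdk2, Cdk4 and Cdk6) were all lower at day 11. Cdk6, a partner of D cyclins, fell by 1.07 by day 3 (adjusted p = 3.33e-20, limma), and Cdk4 by 0.43 (adjusted p = 8.47e-14). Ccna2, cyclin A2, was at -2.48 on day 11 (adjusted p = 1.12e-13), and Mki67, a marker of cycling cells, at -2.83. The pocket protein Rbl1 (p107) was higher at day 3 (0.28, called) and lower at day 11 (-0.43, called), and E2f1 was called at neither (0.05 and 0.08).

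Of all genes tested, 14.6%, 24.9% and 16.8% were higher with knockdown at days 3, 7 and 11, and 12.1%, 22.6% and 16.2% lower. Of the E2F targets, 8 of 10 were higher at day 3 and 7 on day 7, with none lower, and at day 11 none was higher and 3 were lower (medians 0.27, 0.31 and -0.16). The proliferation markers gave 6 of 10 higher at day 3, 10 on day 7, and none higher and 1 lower at day 11. The higher Ccne2 at day 11 was thus measured beside E2F targets that were not higher. Ccna2 was at 0.63 on day 7 (adjusted p = 0.00026, limma) and -0.69 on day 11 (adjusted p = 0.0381), and Mki67 at 0.73 (called) and -0.26 (not called). Cdk6 was lower at days 3, 7 and 11 (-0.16, -0.46 and -0.69, all called), the days on which Ccnd1 was lower. Cdk4 was lower at days 7 and 11 (-0.23 and -0.27, called), Cdk2 higher on day 7 (0.27, called), and Rbl1 higher on day 7 (0.48, called). E2f1 was called on none of the days.

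Of the 4 other CDK inhibitors tested (Cdkn1c was not tested), 1 was higher and 2 lower on day 7, with Cdkn2d (p19) at 0.33 and Cdkn2b (p15) at -0.70. At day 11 1 was higher and 1 lower, Cdkn2d at 0.41 and Cdkn2a at -0.49. Summed over the 5 genes of that list, reads ran from 10410 to 11120 in control and from 6811 to 8184 in knockdown libraries on day 7. At day 11 they ran from 12460 to 13680 and from 8101 to 11870. These sums were thus lower with knockdown, while that of the 3 inhibitors among the members was higher. Of 12 genes of the p53 list, 3 were higher and 6 lower on day 7 and 5 higher and 3 lower at day 11, the days on which Cdkn1a was called higher. At day 11 Btg2 rose most (1.18) and Eda2r fell most (-0.59). Of 8 mitogen and FOXO regulators, 6 were higher and none lower at day 11, with Fosl1 highest (1.77). Among 9 genes of p27 and cyclin turnover, 3 were higher on day 7 and 2 lower at day 11, where Skp2, which marks p27 for breakdown, was at -0.43. The MuvB core and the E2F and DP list with Rbl1 had no call at day 11, and on day 7 2 of 4 and 4 of 11 members were higher, with 0 and 1 lower. In lists this small, counts near the shares over all genes are no result about the list, as for turnover (24.9% of all genes higher on day 7, 16.2% lower at day 11).

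Markers of cell state moved with the knockdown on the same days, and their part in the members' values was not tested. Of 10 adipocyte markers 10, 10 and 9 were higher at days 3, 7 and 11 (medians 0.97, 1.93 and 1.64), beside 14.6%, 24.9% and 16.8% of all genes tested. Their summed reads ran from 53620 to 58050 in control and from 146700 to 224000 in knockdown libraries on day 7, and from 57110 to 66430 and from 114700 to 141900 at day 11. Of 9 fibroblast and preadipocyte markers tested, 7 were lower on day 7 and 3 at day 11, beside 22.6% and 16.2% of all genes tested. The sums over that list were 652900 to 715100 in control and 536700 to 595400 in knockdown on day 7. At day 3 the sums overlapped, at 349300 to 382200 in control and 312100 to 386400 in knockdown. They also overlapped at day 11, at 742700 to 853000 in control and 629500 to 776600 in knockdown. None of these markers was at 3 reads or fewer on those days.

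Over the 12 group means (3 arms by 4 days), members were also compared with each other and with 12059 named genes, as a description in which points share libraries of a day and the course of differentiation. The closest pairs of members were Cdkn1b and Rbl2 (Pearson r = 0.90), Cdkn1a and Rb1 (0.79) and Ccne1 and Ccne2 (0.79), and the most opposed Ccnd2 and Ccnd3 (-0.90) and Ccnd1 and Rb1 (-0.80). The gene most like Ccne1 was Rrm2 (0.96), a subunit of the enzyme that makes DNA precursors, followed by Ccdc18 and Cdc45 (both 0.96). Nearest to Ccne2 were Dut (0.96), Pms2 and Slc19a2 (both 0.95). Ccnd1 was most like Zc3h4 (0.97), Yap1 (0.96) and Prkg2 (0.95), and Rb1 most like Peg10, Jarid2 and Gk5 (0.96 each). For Ccnd2 these were Inhbb (0.99), S1pr1 (0.98) and Pura (0.97), and for Ccnd3 Cdnf, Paf1 and Nudt1 (0.96 each).

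Among the inhibitors, Cdkn1a was nearest to Zfp703 (0.91), H2bc21 (0.87) and Hsp90b1 (0.86), the lowest values of the set. Cdkn1b was nearest to Papss1 (0.97), Npr3 (0.965) and Anxa6 (0.96), and Cdkn2c to Insig1 (0.95), Rab40b and Npnt (both 0.93). Rbl2 was nearest to Cavin3 (0.99), Vps26c and Stat6 (both 0.98).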

How the data were processed

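RNA from 32 libraries of 3T3-L1 cells was sequenced, and each library's group and replicate number were taken from its title. Per the submitters' processing notes, the tools were TopHat2 2.1.0, Bowtie2 2.2.6, SAMtools 1.3.1 and HTSeq 0.6.1. The genome build, the annotation, the use of strand and the transformation are not given in the sources used here. The authors deposited normalised log2 values, from -1.564 to 17.99, in which low genes are shrunk towards their own mean. Inverting that shrinkage gave reads within 0.1 of a whole number for 99.3% of values (20% by chance) and for all 320 member values, and these were scaled to equal depth as normalised reads. Because the deposited values were already log2, the planned pseudocount of 1 was used only as an alternative.

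Genes with 2 to the deposited value of at least 10 in 4 or more libraries were tested with limma 3.58.1 in R 4.3.3 (trend and robust variance), two-sided, on the deposited values, with Benjamini-Hochberg adjustment over all genes tested and calls at an adjusted p under 0.05. SE denotes limma's standard error. On simulated data for the day 7 comparison (13381 genes), 82.1% of genes changed 1.5-fold were called, and 2.94% of calls were false. The simulated counts took their spread from the controls alone, had no difference between the shRNAs, were not shrunk and had few changed genes. These 2 shares therefore describe that setting and need not hold for the real comparison. Exon positions and lengths came from GENCODE M21 (GRCm38). Named were all 10 members and Zbtb9, Rbl1, E2f1, Ccna2, Cdk2, Cdk4, Cdk6 and Mki67 whatever their values, the largest rise and fall among called genes of a list, and the 3 genes most like each member. Members and lists were chosen with earlier results of these data known. Alternatives were other scalings, filters and variance settings, 1 fit of all libraries, the shRNAs as separate groups, a replicate block and leaving out each library.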

Additional observations from a re-analysis of the deposited data

Results flagged for a closer look

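In 8 of the 40 control groups of 4 libraries (10 genes on 4 days), 1 library stood apart from the others by Dixon's test, which divides the gap to the nearest library by the range. Chance flags about 1 in 20 groups. The 10 genes share the same control libraries, so the 40 groups are not independent. The share flagged over all genes was not computed, so the count is no result about these members. On the deposited log2 scale these were Cdkn2c at day 0 (replicate 4 at 9.64, the others from 9.88 to 9.92) and day 7 (replicate 3 at 8.88, the others from 9.19 to 9.20), Ccnd1 at day 0 (replicate 1 at 13.57, the others from 13.64 to 13.66) and Ccnd2 at day 0 (replicate 2 at 14.96, the others from 14.85 to 14.86). The rest were Ccnd3 at day 11 (replicate 3 at 12.29, the others from 12.42 to 12.44), Ccne1 at day 11 (replicate 4 at 7.69, the others from 8.11 to 8.19) and Ccne2 at day 0 (replicate 1 at 7.79, the others from 8.11 to 8.15) and day 11 (replicate 1 at 6.26, the others from 6.74 to 6.77).

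The knockdown difference itself changed between days in 19 cases by the limma test over all 32 libraries (values are the later minus the earlier log2 difference). From day 0 to day 3 these were Cdkn1a (0.36) and Rbl2 (-0.24). From day 0 to day 7 they were Cdkn1a (0.46), Cdkn2c (1.12), Ccnd1 (-1.55), Ccne1 (0.52), Ccne2 (1.10) and Rb1 (0.95). From day 0 to day 11 they were Cdkn1a (1.08), Cdkn1b (0.53), Cdkn2c (0.66), Ccnd1 (-1.20), Ccnd2 (-0.30), Ccne2 (1.51) and Rb1 (0.76). From day 7 to day 11 they were Cdkn1a (0.62), Cdkn1b (0.44), Cdkn2c (-0.47) and Ccne1 (-0.80). These sets of cases share libraries and are not independent.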

How the results depend on the processing

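Of 1880 member values under alternatives with no library left out, 35 lost a call and 20 gained one, and of 3360 values with a library left out, 52 lost and 23 gained one. None was called with the other sign, and 18 and 63 uncalled values near 0 changed sign (the largest of these was 0.12 in absolute size as reported). At day 0 the 1 member called with knockdown became 0 after rescaling, without the filter, without the trend and robust variance and with the replicate block, 3 with the shRNAs as separate groups, and 0 to 1 with a library left out. At day 3 the 5 members became 2 with the replicate block and 8 with separate shRNAs. The 2 members whose knockdown difference changed from day 0 to day 3 became 4 with the block. The 5 called for shRNA 2 against control at day 0 became 3 without the filter and 3 to 5 with a library left out, and the 3 differing between the shRNAs at day 11 became 5 with the block and 3 to 5 with a library left out. Replicate numbers are not known to pair the samples. Same-numbered deviations correlated from -0.094 to 0.119 across control days and from -0.005 to 0.215 between knockdown and control. Of the latter, 3 of 16 were above 0.1, all at day 11 (0.215, 0.126 and 0.142, the fourth pair 0.004). Differently numbered pairs were not computed for comparison, so pairing at day 11 is not excluded. With the block, member calls for knockdown against control were lost for Cdkn1a on day 0 (adjusted p = 0.581, limma) and day 7 (0.116), Ccnd2 (0.0854), Ccne2 (0.1) and Rb1 (0.0704) at day 3, and Cdkn2c (0.0864) and Ccnd2 (0.15) at day 11, with the sign kept in each. With the block, the count of all genes called at days 0, 3, 7 and 11 fell from 430 to 0, 3506 to 845, 6328 to 4112 and 4382 to 1652. With separate shRNAs it rose from 430 to 3340 at day 0 and from 3506 to 5311 at day 3. In the blocked knockdown fits, control replicates 3 and 4 had no knockdown library of the same number and dropped out, which left 2 controls. With separate shRNAs, the difference between the shRNAs no longer counted as spread within a group. How much each of these moved the counts was not tested. Depth limits Zbtb9, with few reads in any library, and Ccne2 at day 11 most.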
